A study of Mus musculus with 4 samples.

Results

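The erythroid and megakaryocyte genes examined here were 8 genes of the red cell and platelet lineages, namely Gata1, Klf1, Gfi1b, Epor, Tfrc, Ank1, Vwf and Selp, out of 21887 protein-coding mouse genes. Each was taken with its gene body and 20 kb on either side, in mm10 (GRCm38) coordinates, and every accessible interval of the deposited lists that touched one of these 8 loci was used. Intervals that shared a base, in whichever library, were joined into 1 region, and 81 of the resulting 120423 regions lay in the 8 loci. The genes were chosen by name, with earlier results of these data known.

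Open chromatin was profiled by Omni-ATAC-seq, in which the transposase Tn5 cuts open DNA and leaves sequencing adapters there. The 4 libraries came from Cxcr3-/- monocytes, WT monocytes, Cxcr3-/- common myeloid progenitors and granulocyte-monocyte progenitors (CMP/GMP), and WT CMP/GMP, all cultured from bone marrow of the C57BL/6J strain, with 1 library a group. Cxcr3 encodes a chemokine receptor, and the series concerns its part in macrophage differentiation and in liver cancer that is induced in mice with diethylnitrosamine (DEN) and tetrachloromethane (CCl4). The disease state given for all 4 libraries is hepatocellular carcinoma, whereas the series' design says that the cells were grown in vitro; the age of the donor mice and whether they had received DEN and CCl4 are not given in the sources used here. With 1 library a group there is no replicate spread, so no difference was tested, and every interval given is a 95% interval for counting error alone. These are bulk libraries, in which a smaller share of cells with an open site and a less open site in every cell cannot be told apart.

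Common myeloid progenitors can give rise to red cells and megakaryocytes as well as to granulocytes and monocytes, whereas granulocyte-monocyte progenitors and monocytes have left that route. Gata1 is the zinc-finger factor that drives both erythroid and megakaryocyte differentiation and binds GATA motifs. Klf1 activates globin and other red cell genes through CACCC boxes, and Gfi1b is a repressor needed in both lineages. Epor is the receptor for erythropoietin. Tfrc, the transferrin receptor, imports iron in most dividing cells and in large amounts in erythroblasts. Ank1 ties the red cell membrane to its spectrin skeleton. Vwf and Selp encode the clotting protein von Willebrand factor and the adhesion receptor P-selectin, which platelets and endothelial cells store in granules.

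The promoters of 5 of these genes are shown because the calls below turn on them: those of Tfrc and Gfi1b were called open in all 4 libraries, that of Selp in both monocyte libraries and in neither CMP/GMP library, and those of Klf1 and Epor in none. Each runs 5′ to 3′ on the gene's own strand from 250 bases before to 50 bases after the annotated start, as given by RefSeq for GRCm38.p6. They lie at chr8:84901732-84902031 (Klf1, plus strand), chr9:21963527-21963826 (Epor, minus strand), chr2:28621933-28622232 (Gfi1b, minus strand), chr16:32608646-32608945 (Tfrc, plus strand) and chr1:164115014-164115313 (Selp, plus strand). Capitals mark a GATA motif, searched on both strands as GATA between an A or T on its left and an A or G on its right.
Klf1: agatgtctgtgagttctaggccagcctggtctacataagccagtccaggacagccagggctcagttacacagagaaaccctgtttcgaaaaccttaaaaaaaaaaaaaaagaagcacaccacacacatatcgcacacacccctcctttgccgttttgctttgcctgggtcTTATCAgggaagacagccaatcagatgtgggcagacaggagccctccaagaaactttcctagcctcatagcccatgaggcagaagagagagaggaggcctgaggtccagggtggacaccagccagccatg
Epor: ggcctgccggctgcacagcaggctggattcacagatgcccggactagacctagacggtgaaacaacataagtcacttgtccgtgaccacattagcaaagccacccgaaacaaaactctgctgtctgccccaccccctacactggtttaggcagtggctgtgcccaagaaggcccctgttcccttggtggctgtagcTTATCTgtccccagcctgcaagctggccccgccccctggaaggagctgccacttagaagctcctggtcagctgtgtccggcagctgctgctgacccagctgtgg
Gfi1b: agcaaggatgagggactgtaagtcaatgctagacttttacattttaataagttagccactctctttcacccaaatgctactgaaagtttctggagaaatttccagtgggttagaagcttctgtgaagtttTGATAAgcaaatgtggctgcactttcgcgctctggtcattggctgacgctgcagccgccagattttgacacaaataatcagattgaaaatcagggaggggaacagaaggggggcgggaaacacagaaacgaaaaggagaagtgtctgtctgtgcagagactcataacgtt
Tfrc: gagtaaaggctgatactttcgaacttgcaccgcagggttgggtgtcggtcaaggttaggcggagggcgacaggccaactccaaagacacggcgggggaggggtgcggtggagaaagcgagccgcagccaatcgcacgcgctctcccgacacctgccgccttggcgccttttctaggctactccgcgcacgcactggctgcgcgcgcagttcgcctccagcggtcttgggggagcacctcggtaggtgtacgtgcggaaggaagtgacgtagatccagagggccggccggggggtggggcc
Selp: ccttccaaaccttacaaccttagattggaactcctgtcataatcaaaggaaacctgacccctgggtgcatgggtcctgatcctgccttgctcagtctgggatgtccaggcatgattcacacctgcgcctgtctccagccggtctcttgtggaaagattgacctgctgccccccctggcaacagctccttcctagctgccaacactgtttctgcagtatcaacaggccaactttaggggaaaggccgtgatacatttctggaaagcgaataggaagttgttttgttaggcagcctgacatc
A GATA motif stood at position −80 from the start in Klf1, at −54 in Epor and at −120 in Gfi1b, and these letters were not in the windows of Tfrc, Selp and Gata1. Of all 17492 promoters of the same length, 26.7% held one. An E-box joined to a GATA motif, spelled CTG, then 8 or 9 bases of any kind, then GATA, was present in Klf1 and Gfi1b and in 3.99% of all promoters; its GATA can be that of the GATA motif. CACCC boxes, spelled CCNCNCCC, were present in Gata1, Epor, Tfrc and Gfi1b and in 55.8% of all promoters. These matches are letters in a window and say nothing of binding. Ank1 and Vwf are given by name and coordinates only.

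The deposited lists held 78244 intervals in Cxcr3-/- monocytes, 98257 in WT monocytes, 80171 in Cxcr3-/- CMP/GMP and 69521 in WT CMP/GMP. Signal is given as the pileup, the tags covering the summit of an interval, with medians of 21, 21, 29 and 21 in the order of the 4 lists above. In that order, 95% of called intervals had pileups of at least 9, 7, 13 and 10 tags. Pileups were divided by scale factors of 0.846, 1.08, 1.35 and 0.826 in the same order, which set the median region called in all 4 libraries to no difference. Scaling by background tag density instead would add 0.32 to the log2 ratio of Cxcr3-/- monocytes over Cxcr3-/- CMP/GMP, 0.88 to that of WT monocytes over WT CMP/GMP, −0.37 to that of Cxcr3-/- over WT monocytes and 0.19 to that of Cxcr3-/- over WT CMP/GMP, so each ratio is relative to the median region. The cell type labels were set against markers: of 11 CMP/GMP marker promoters, 6 were called in each monocyte library and 9 in each CMP/GMP library, and of 8 monocyte marker promoters between 7 and 8 were called in every library. Promoters of B and T cells (0 or 1 of 8 per library), mast cells and basophils (2 or 3 of 9) and endothelial and stromal cells (0 to 3 of 8) were called in the numbers given. Intervals inside the gene body were held by 7 to 9 of 12 endothelial and stromal genes, by 7 or 8 of 12 B and T cell genes and by 3 to 6 of 10 mast cell and basophil genes per library, with Tie1 and Cd3e among those at 0 in every library; the part of such cells in the results below was not tested.

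The 8 loci, 726 kb in all, held 52 intervals in Cxcr3-/- monocytes (95% Poisson interval 38.8 to 68.2), 63 in WT monocytes (48.4 to 80.6), 64 in Cxcr3-/- CMP/GMP (49.3 to 81.7) and 51 in WT CMP/GMP (38.0 to 67.1). The counting intervals of the 4 libraries overlap. As a share of each list these were 0.0665%, 0.0641%, 0.0798% and 0.0734%, in the order Cxcr3-/- monocytes, WT monocytes, Cxcr3-/- CMP/GMP and WT CMP/GMP. Inside the 8 gene bodies there were 30, 35, 35 and 28 intervals in that order. The intervals were of ordinary strength, with median ranks in the top 45.3%, 43.9%, 55.1% and 50.4% of their own lists.

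**Figure D1:**
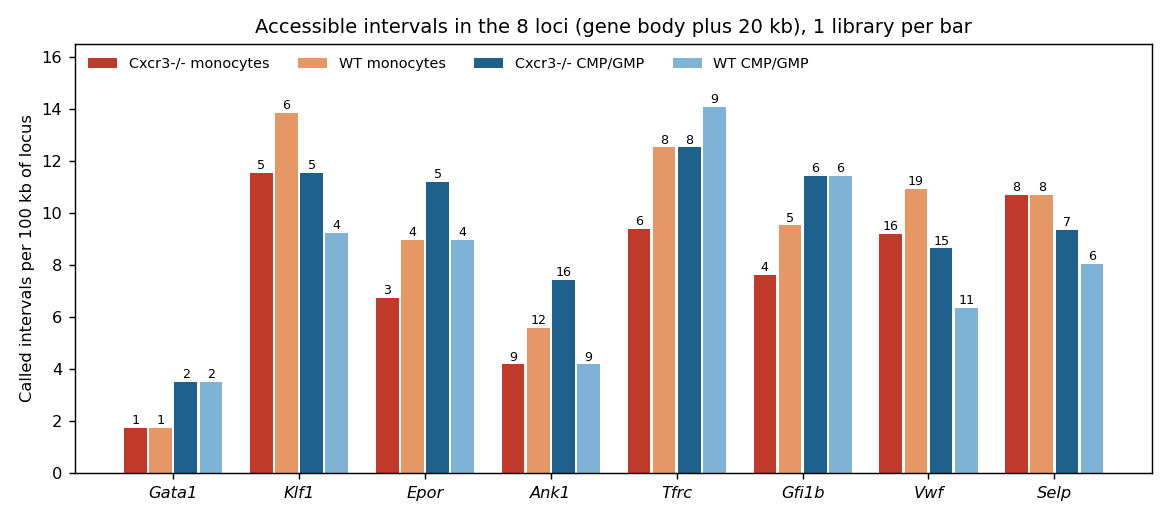
Called intervals per 100 kb of locus (vertical axis, from 0) for each of the 8 loci, gene body and 20 kb on either side, with 1 bar per library and the number of intervals printed above each bar. Gata1 has the lowest density, with 1 interval in each monocyte library and 2 in each CMP/GMP library, and Vwf has the most intervals in 3 of the 4 libraries.

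Of the 81 regions, 41 lay in the body of 1 of the 8 genes and 40 in the flanks, where 20 fell inside another protein-coding gene and 13 within 1 kb of the end of one. A region in a flank therefore need not belong to the gene that names the locus. In all 4 libraries 30 regions were called, 37.0% of the 81 and likewise 37.0% of all 120423 regions. Regions called in a single library numbered 16, or 19.8%, against 25.6% of all regions.

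**Figure D2:**
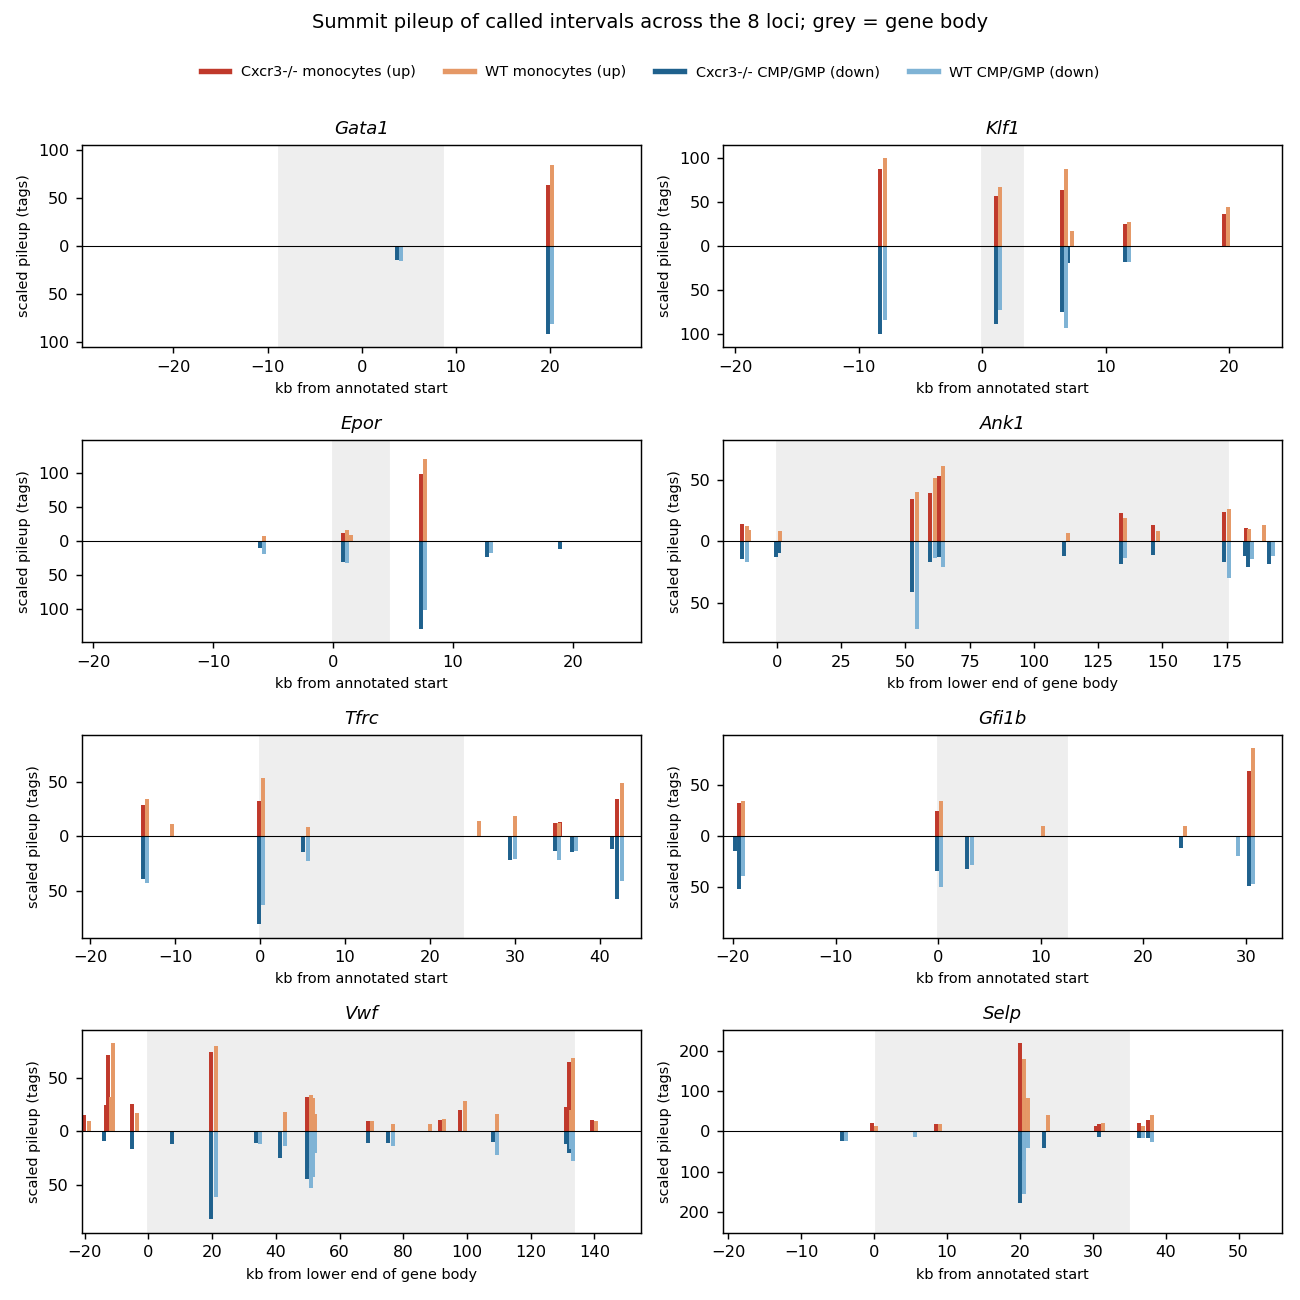
Scaled summit pileup, in tags, of the called intervals in each of the 8 loci against distance in kb from the annotated start or, for Ank1 and Vwf, from the lower end of the gene body, with monocyte libraries drawn upwards, CMP/GMP libraries downwards and the gene body in grey. Vwf has strong bars about 12 kb outside its lower end upwards alone, and Selp has its tallest bars on both sides of the line about 20 kb inside the gene.

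Among the 3 transcription factors, the Gata1 gene (chrX:7959260-7976663, minus strand) had a single interval of its own, and in CMP/GMP alone. It lay at chrX:7963841-7964087, 3966 bp downstream of the annotated start used here, chrX:7967910, which itself lies inside the gene body. This interval had 20 tags in Cxcr3-/- CMP/GMP and 13 in WT CMP/GMP, and no call in either monocyte library. Equal accessibility would have given 12.5 tags in Cxcr3-/- monocytes and 16.9 in WT monocytes, where 95% of called intervals had at least 9 tags in Cxcr3-/- monocytes and 7 in WT monocytes. The strongest region of the locus, at chrX:7947584-7948235, had 54 tags in Cxcr3-/- monocytes and 91 in WT monocytes, against 124 in Cxcr3-/- CMP/GMP and 67 in WT CMP/GMP. That region sits at the start of Hdac6, a neighbouring deacetylase gene, and not at Gata1. No library had a call at the Gata1 promoter.

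Klf1 (chr8:84901982-84905291, plus strand) had its own region at chr8:84902870-84903672, 1235 bp inside the gene, called in all 4 libraries. Its pileup was 48 tags in Cxcr3-/- monocytes and 72 in WT monocytes, against 121 in Cxcr3-/- CMP/GMP and 60 in WT CMP/GMP. The log2 ratio of monocytes over CMP/GMP was −0.66 in Cxcr3-/- cells (−1.17 to −0.16) and −0.12 in WT cells (−0.63 to 0.40), so the interval lay below 0 in Cxcr3-/- cells and covered 0 in WT cells, and in WT cells background scaling turns the sign to 0.76. Other regions of the locus lie at the starts of the neighbouring genes Gcdh and Dnase2a. A weaker region inside Mast1, at chr8:84921557-84921876, had 31 tags in Cxcr3-/- monocytes and 48 in WT monocytes and was called in neither CMP/GMP library, where equal accessibility would have given 49.6 tags in Cxcr3-/- CMP/GMP and 36.8 in WT CMP/GMP. No library had a call over the Klf1 promoter printed above.

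Gfi1b (chr2:28609450-28621982, minus strand) was called at its promoter in all 4 libraries. There, at chr2:28621667-28622035, the pileup was 21 tags in Cxcr3-/- monocytes and 37 in WT monocytes, against 46 in Cxcr3-/- CMP/GMP and 41 in WT CMP/GMP. The log2 ratio of monocytes over CMP/GMP was −0.45 in Cxcr3-/- cells (−1.27 to 0.32) and −0.53 in WT cells (−1.21 to 0.15), neither beyond counting error, and background scaling turns the WT value to 0.35. A region 3047 bp inside the gene, at chr2:28618531-28619215, was called in CMP/GMP alone, with 43 tags in Cxcr3-/- CMP/GMP and 23 in WT CMP/GMP. Equal accessibility would have given 26.9 tags in Cxcr3-/- monocytes and 29.97 in WT monocytes, well above the weakest calls of those lists. Of the regions in the 3 transcription factor genes this is the clearest one called in CMP/GMP and not in monocytes. A region beyond the other end of the gene, at chr2:28591287-28591952, had 54 tags in Cxcr3-/- monocytes and 93 in WT monocytes, against 66 in Cxcr3-/- CMP/GMP and 39 in WT CMP/GMP. Its log2 ratio was 0.39 in Cxcr3-/- cells (−0.16 to 0.93) and 0.87 in WT cells (0.32 to 1.45), higher in monocytes, and in WT cells beyond counting error.

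Both receptor genes were lower in monocytes at or near their starts in Cxcr3-/- cells. Epor (chr9:21958897-21963576, minus strand) had a region 965 bp inside the gene, at chr9:21962430-21962721. Its pileup was 10 tags in Cxcr3-/- monocytes and 17 in WT monocytes, against 42 in Cxcr3-/- CMP/GMP and 26 in WT CMP/GMP. The log2 ratio was −1.39 in Cxcr3-/- cells (−2.55 to −0.37) and −0.99 in WT cells (−1.97 to −0.06), the same sign in both genotypes, though in WT cells background scaling brings it to −0.12. These pileups fall under the mean of 30 tags required for the gene averages, so the value is not part of them. The strongest region of the locus, at chr9:21955348-21956255, had 83 tags in Cxcr3-/- monocytes and 130 in WT monocytes, against 175 in Cxcr3-/- CMP/GMP and 83 in WT CMP/GMP, and it lies at the promoter of the neighbouring Swsap1. The Epor promoter itself was called in no library.

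The Tfrc promoter (gene at chr16:32608896-32632794, plus strand) showed a wider spread between the 4 libraries than that of Gfi1b, the other member promoter called in all of them. The region chr16:32608723-32609411 had 27 tags in Cxcr3-/- monocytes and 57 in WT monocytes, against 109 in Cxcr3-/- CMP/GMP and 52 in WT CMP/GMP. Cxcr3-/- monocytes were the low library and Cxcr3-/- CMP/GMP the high one. The log2 ratio of monocytes over CMP/GMP was −1.34 in Cxcr3-/- cells (−2.0003 to −0.72) and −0.25 in WT cells (−0.82 to 0.32), with the WT sign turned to 0.63 by background scaling. Between genotypes, the log2 ratio of Cxcr3-/- over WT was −0.73 in monocytes (−1.45 to −0.05) and 0.35 in CMP/GMP (−0.14 to 0.86). A region inside the neighbouring kinase gene Tnk2, at chr16:32650966-32651499, had 29 tags in Cxcr3-/- monocytes and 52 in WT monocytes, against 77 in Cxcr3-/- CMP/GMP and 34 in WT CMP/GMP. Its log2 ratio of monocytes over CMP/GMP was −0.73 in Cxcr3-/- cells (−1.40 to −0.10) and 0.23 in WT cells, so after scaling the same 2 libraries were lowest and highest while the order of the WT libraries differed from that at the promoter. A weak region inside Tfrc, at chr16:32614199-32614365, had 9 tags in WT monocytes against 19 in WT CMP/GMP. Its WT log2 ratio was −1.46 (−2.79 to −0.25), and −0.58 with background scaling. It had 19 tags in Cxcr3-/- CMP/GMP and no call in Cxcr3-/- monocytes, where equal accessibility would have given 11.9.

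Ank1, the red cell membrane gene (chr8:22974836-23150501), held 2 of the 3 locus regions in which monocytes exceeded CMP/GMP more than 2-fold in both genotypes, both well inside the gene. At chr8:23038466-23038912 the pileup was 45 tags in Cxcr3-/- monocytes and 66 in WT monocytes, against 17 in Cxcr3-/- CMP/GMP and 17 in WT CMP/GMP. The log2 ratio was 2.08 in Cxcr3-/- cells (1.25 to 2.98) and 1.58 in WT cells (0.79 to 2.44). At chr8:23035104-23035567 there were 33 tags in Cxcr3-/- monocytes and 55 in WT monocytes, against 23 in Cxcr3-/- CMP/GMP and 11 in WT CMP/GMP, for log2 ratios of 1.20 in Cxcr3-/- cells (0.39 to 2.03) and 1.94 in WT cells (0.99 to 3.02). Both regions were higher in both monocyte libraries beyond counting error, and with background scaling too. A region nearer the lower end, at chr8:23027965-23028873, did not share this: it had 29 tags in Cxcr3-/- monocytes and 43 in WT monocytes, against 56 in Cxcr3-/- CMP/GMP and 59 in WT CMP/GMP. Its log2 ratio was −0.27 in Cxcr3-/- cells (−0.97 to 0.40) and −0.84 in WT cells (−1.44 to −0.25), and background scaling turns both, to 0.05 and 0.04. The miRNA gene Mir486 also lies within Ank1.

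Vwf (chr6:125552948-125686679) was the locus with the most regions, 21, and with the most called in monocytes alone. The strongest region called in monocytes alone, at chr6:125540744-125541222 and 11937 bp outside the lower end of the gene, had 61 tags in Cxcr3-/- monocytes and 89 in WT monocytes and was called in neither CMP/GMP library. Equal accessibility would have given 97.6 tags in Cxcr3-/- CMP/GMP and 68.3 in WT CMP/GMP, far above the weakest calls of those lists. A region next to it, at chr6:125540250-125540590, had 21 tags in Cxcr3-/- monocytes and 35 in WT monocytes, again with no call in CMP/GMP. At the other end of the gene, at chr6:125685084-125685780, the pileup was 55 tags in Cxcr3-/- monocytes and 74 in WT monocytes, against 27 in Cxcr3-/- CMP/GMP and 23 in WT CMP/GMP. The log2 ratio there was 1.70 in Cxcr3-/- cells (1.02 to 2.43) and 1.30 in WT cells (0.61 to 2.05). A region nearer the lower end went no such way: chr6:125572348-125573540 had 63 tags in Cxcr3-/- monocytes and 86 in WT monocytes, against 112 in Cxcr3-/- CMP/GMP and 51 in WT CMP/GMP, with log2 ratios of −0.15 in Cxcr3-/- cells and 0.37 in WT cells. Endothelial cells also use Vwf and Selp, and the median log2 ratio of monocytes over CMP/GMP for the endothelial and stromal markers was 0.32 in Cxcr3-/- cells, with 4 of 6 genes above 0, and 0.61 in WT cells, with 4 of 4 above 0. Kdr, an endothelial growth factor receptor, had 1.49 ± 0.45 in Cxcr3-/- cells and 0.91 ± 0.51 in WT cells, and the angiopoietin receptor gene Tek had 2.39 ± 0.83 in Cxcr3-/- cells and no ratio in WT cells. The ratios of Kdr and Tek were the highest of the list. In Cxcr3-/- cells Cdh5 had 0.32 ± 0.43, Cxcl12 0.31 ± 0.68, Pecam1 −0.01 ± 0.55 and Pdgfrb −0.38 ± 0.38, none beyond counting error. In WT cells Cdh5 had 0.58 ± 0.44, Pecam1 0.39 ± 0.73 and Pdgfrb 0.64 ± 0.45, with Cdh5 and Pdgfrb beyond counting error. The part of endothelial cells in the Vwf and Selp results was not tested.

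Selp (chr1:164115264-164150026, plus strand) held the strongest region of all 8 loci. It lay at chr1:164135273-164135799, 20304 bp inside the gene, with 185 tags in Cxcr3-/- monocytes and 193 in WT monocytes, against 242 in Cxcr3-/- CMP/GMP and 128 in WT CMP/GMP. This put it in the top 0.33%, 0.38%, 0.71% and 1.28% of the lists of Cxcr3-/- monocytes, WT monocytes, Cxcr3-/- CMP/GMP and WT CMP/GMP. The log2 ratio of monocytes over CMP/GMP was 0.29 in Cxcr3-/- cells (0.01 to 0.57) and 0.21 in WT cells (−0.12 to 0.55), small differences relative to the median region. By the authors' −log10 q, a site inside a platelet and endothelial gene was thus among the strongest of every list. In the same order, the expected background there was 8.6, 9.1, 13.9 and 7.0 tags. The fold over it was 19.5, 19.2, 16.3 and 16.2, against 18.6, 24.8, 22.2 and 20.1 at Hdac6 in the Gata1 locus. The neighbouring Selp region at chr1:164136036-164136276 had 71 tags in Cxcr3-/- monocytes and 88 in WT monocytes, against 100 in Cxcr3-/- CMP/GMP and 35 in WT CMP/GMP.

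The Selp promoter printed above was called weakly and in monocytes alone, with 17 tags in Cxcr3-/- monocytes and 15 in WT monocytes. Equal accessibility would have given 27.2 tags in Cxcr3-/- CMP/GMP, above the weakest calls there, and 11.5 in WT CMP/GMP, close to them. Of all 17492 promoters, 169, or 0.966%, were called in both monocyte libraries and in neither CMP/GMP library. A region 4132 bp before the start, at chr1:164110939-164111247, went the other way, with 31 tags in Cxcr3-/- CMP/GMP and 19 in WT CMP/GMP and no call in monocytes. Of the 6 members with a promoter entry, 2 were called in all 4 libraries and 3 in none, against 48.0% and 42.8% of all promoters.

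Monocytes were first compared with CMP/GMP over all regions of the 8 loci. Both monocyte libraries and neither CMP/GMP library had calls at 10 of the 81 regions, 12.3%, against 14.4% of all regions. The opposite held for 8 of the 81, 9.88%, against 7.28% of all regions. Both shares are near the background. In Cxcr3-/- cells, 12 of 73 regions were called in monocytes and not in CMP/GMP (background 22%) and 26 of 73 the other way (background 26.3%). In WT cells, 26 of 72 were called in monocytes alone (background 38.6%) and 10 of 72 in CMP/GMP alone (background 12.5%). Of the 10 regions called in both monocyte libraries alone, 6 lay in the Vwf locus.

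Ratios were averaged where both libraries had a call and their pileups averaged 30 tags or more. The median log2 ratio of monocytes over CMP/GMP was −0.27 over 19 locus regions in Cxcr3-/- cells, against 0.03 over all regions, and 0.21 over 21 locus regions in WT cells, against 0.15. More than 2-fold higher in monocytes were 2 of 19 regions in Cxcr3-/- cells (background 13.1%) and 3 of 21 in WT cells (background 13.4%). More than 2-fold lower were 1 of 19 in Cxcr3-/- cells (background 7.45%) and 0 of 21 in WT cells (background 5.24%). The regions past 2-fold higher were those of Ank1 and the upper end of Vwf, and the one past 2-fold lower was the Tfrc promoter in Cxcr3-/- cells. The Ank1 region at chr8:23035104-23035567 counted in WT cells only, as its pileups averaged 28 tags in Cxcr3-/- cells. Regions past 2-fold lower but under the minimum included that inside Epor (−1.39 in Cxcr3-/- cells) and the weak one inside Tfrc (−1.46 in WT cells). Averaged by gene, Ank1 was higher in monocytes in both genotypes, with mean log2 ratios of 0.91 ± 0.52 in Cxcr3-/- cells and 0.89 ± 0.45 in WT cells (95% counting error). The Cxcr3-/- mean rests on 2 regions of opposite sign, and with no minimum pileup the means were 0.47 over 8 regions in Cxcr3-/- cells and 0.41 over 6 regions in WT cells. Selp had 0.24 ± 0.26 in Cxcr3-/- cells and 0.60 ± 0.33 in WT cells. Tfrc had −0.84 ± 0.37 in Cxcr3-/- cells and −0.11 ± 0.35 in WT cells. With no minimum pileup the Tfrc mean was −0.67 over 4 regions in Cxcr3-/- cells and −0.46 over 6 regions in WT cells. Klf1 had −0.36 ± 0.26 in Cxcr3-/- cells and 0.02 ± 0.26 in WT cells. The Klf1 means take in regions at Gcdh and Dnase2a besides the region inside the gene, which had −0.66 in Cxcr3-/- cells and −0.12 in WT cells. The other 4 genes had means between −0.52 and 0.27, and those of Gata1 and Epor rest on 1 region each, at Hdac6 and Swsap1. With no minimum pileup the Epor mean was −0.90 in Cxcr3-/- cells and −0.70 in WT cells, the WT value turning sign.

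**Figure D3:**
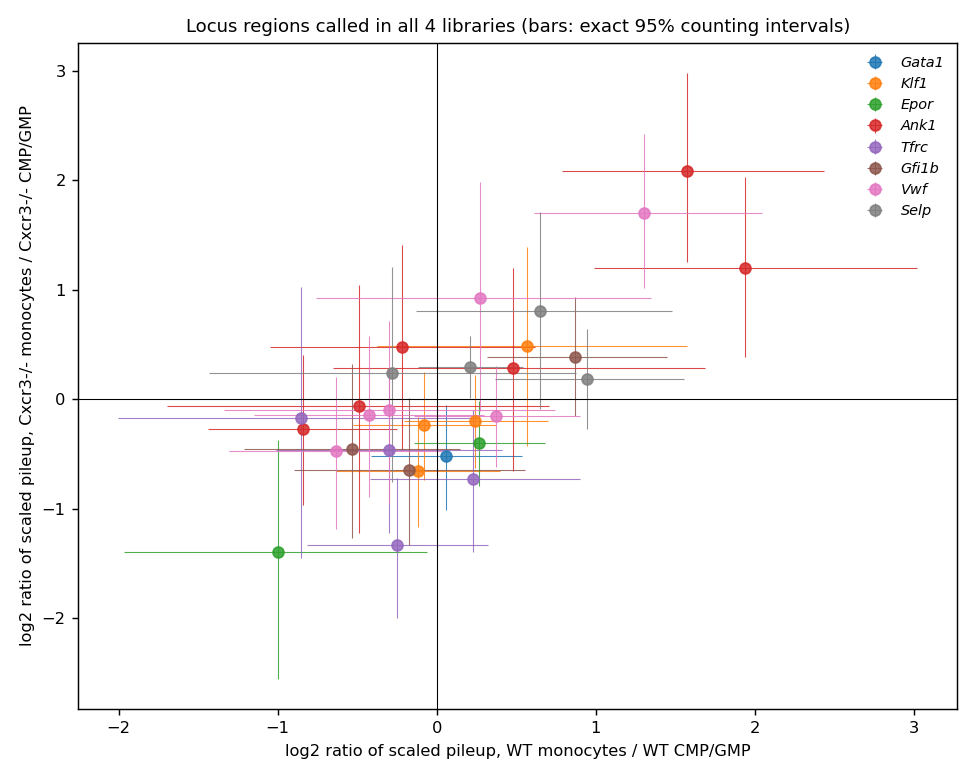
Log2 ratio of scaled pileup of monocytes over CMP/GMP in Cxcr3-/- cells (vertical axis) against WT cells (horizontal axis), 1 point per locus region called in all 4 libraries, coloured by locus, with exact 95% counting intervals as bars. The 2 Ank1 regions and the Vwf region that lie above 1 on both axes stand at the upper right, and the Tfrc promoter and the Epor region inside the gene lie lowest.

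Cxcr3-/- monocytes were then compared with WT monocytes. Of 65 regions, 3 were called in Cxcr3-/- monocytes alone (background 4.95%) and 18 in WT monocytes alone (background 25%), both near the background. Of 22 regions with a ratio, 0 were more than 2-fold higher (background 0.274%) and 0 more than 2-fold lower (background 0.395%). The median log2 ratio was −0.23, against 0.01 over all regions, and 20 of 22 regions were below 0. Over all regions 51.0% had a ratio above 0, against 9.09% of these 22. With gene bodies alone the median was nearer 0, at −0.11 over 11 regions. With no minimum pileup it was −0.11 over 44 regions, against 0.05 over all regions. Of the 22 counting intervals, 1 lay wholly on one side of 0, that of the Tfrc promoter at −0.73. In the same comparison the 12 monocyte markers had a median log2 ratio of −0.19, and the part of that shift in this result was not tested. In Tfrc the mean log2 ratio was −0.50 ± 0.40 and in Klf1 −0.30 ± 0.26, and the means of Vwf, −0.11 ± 0.26, and Selp, −0.06 ± 0.30, were near 0. The Klf1 mean takes in regions at Gcdh, Dnase2a and Mast1. The region inside Klf1 had −0.24 (−0.80 to 0.31), an interval that covers 0.

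Between Cxcr3-/- CMP/GMP and WT CMP/GMP, 17 of 63 regions were called in Cxcr3-/- CMP/GMP alone (background 22%) and 2 of 63 in WT CMP/GMP alone (background 7.23%). Of 19 regions with a ratio, 0 were more than 2-fold higher (background 0.122%) and 0 more than 2-fold lower (background 0.153%). The median log2 ratio was 0.19, against 0.04 over all regions, with 12 of 19 above 0. Past counting error were the second Selp region, at 0.80 (0.23 to 1.40), and the Ank1 region at chr8:23027965-23028873, at −0.79 (−1.34 to −0.24). The 4 comparisons share libraries, so their values are not independent of each other.

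The other genes of the 2 lineages were read from an erythroid list of 39 genes and a megakaryocyte list of 34, without the 8 members. For the erythroid list the median log2 ratio of monocytes over CMP/GMP was −0.03 in Cxcr3-/- cells, with 11 of 27 genes above 0, and 0.35 in WT cells, with 19 of 27 above 0. Over all genes the medians were −0.08 in Cxcr3-/- cells, with 43.8% above 0, and 0.11 in WT cells, with 60.3% above 0. For the megakaryocyte list the medians were −0.06 in Cxcr3-/- cells, with 12 of 27 above 0, and 0.04 in WT cells, with 15 of 25 above 0. The CMP/GMP markers had medians of −0.56 in Cxcr3-/- cells, with 1 of 11 above 0, and −0.63 in WT cells, with 1 of 9 above 0. These medians lay below those of both lists, and background scaling turns the WT sign of the CMP/GMP markers but not this order. The monocyte markers had medians of 0.18 in Cxcr3-/- cells, with 7 of 12 above 0, and 0.59 in WT cells, with 11 of 12 above 0.

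Within the erythroid list, Sptb, the spectrin chain that Ank1 binds, was higher in monocytes, with 1.13 ± 0.41 in Cxcr3-/- cells and 1.22 ± 0.44 in WT cells. The cell cycle factor E2f2 (0.85 ± 0.46 in Cxcr3-/- cells and 1.40 ± 0.46 in WT cells) and the nuclear export receptor Xpo7 (0.91 ± 0.20 in Cxcr3-/- cells and 0.87 ± 0.24 in WT cells) were also higher. The E2f2 means rest on 2 of its 15 regions. Over its 6 regions called in all 4 libraries, log2 pileup was centred over the libraries. It was then −0.13 in Cxcr3-/- monocytes and −0.14 in Cxcr3-/- CMP/GMP, against 0.33 in WT monocytes and −0.06 in WT CMP/GMP. Bcl11a, a repressor of fetal globin, was lower, with −0.56 ± 0.21 in Cxcr3-/- cells and −0.41 ± 0.22 in WT cells. The carbonic anhydrase gene Car2 was lower too, with −0.29 ± 0.26 in Cxcr3-/- cells and −0.59 ± 0.31 in WT cells. Background scaling would turn the signs of Bcl11a and Car2 in WT cells and of Car2 in Cxcr3-/- cells. In the bodies of 8 of the 45 genes of the full erythroid list, 17.8%, no library had an interval, against 26.8% of all protein-coding genes. Among these 8 were Slc4a1, the anion exchanger of the red cell membrane, Alas2, the first enzyme of erythroid haem synthesis, and the globin genes Hba-a1 and Hbb-bt.

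Within the megakaryocyte list, Treml1, a receptor of platelet granules, was higher in monocytes, with 0.85 ± 0.41 in Cxcr3-/- cells and 0.82 ± 0.43 in WT cells. The ETS factor gene Fli1 was higher as well, with 0.49 ± 0.17 in Cxcr3-/- cells and 0.31 ± 0.19 in WT cells. The regions counted for Treml1 lay outside its gene body, in which no library had an interval. The means of the platelet chemokine genes Ppbp and Pf4 rest on 1 shared region. It was lower, with −1.34 ± 0.67 in Cxcr3-/- cells and −0.91 ± 0.65 in WT cells, though background scaling brings the WT value close to 0. Over their 3 shared regions called in all 4 libraries, monocytes were higher. There log2 pileup, centred over the libraries, was 0.13 in Cxcr3-/- monocytes and −0.08 in Cxcr3-/- CMP/GMP. It was 0.17 in WT monocytes and −0.22 in WT CMP/GMP. Gp1bb, a chain of the von Willebrand factor receptor, had −0.94 ± 0.58 in Cxcr3-/- cells and −0.59 ± 0.67 in WT cells, the WT value within its counting error.

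**Figure D4:**
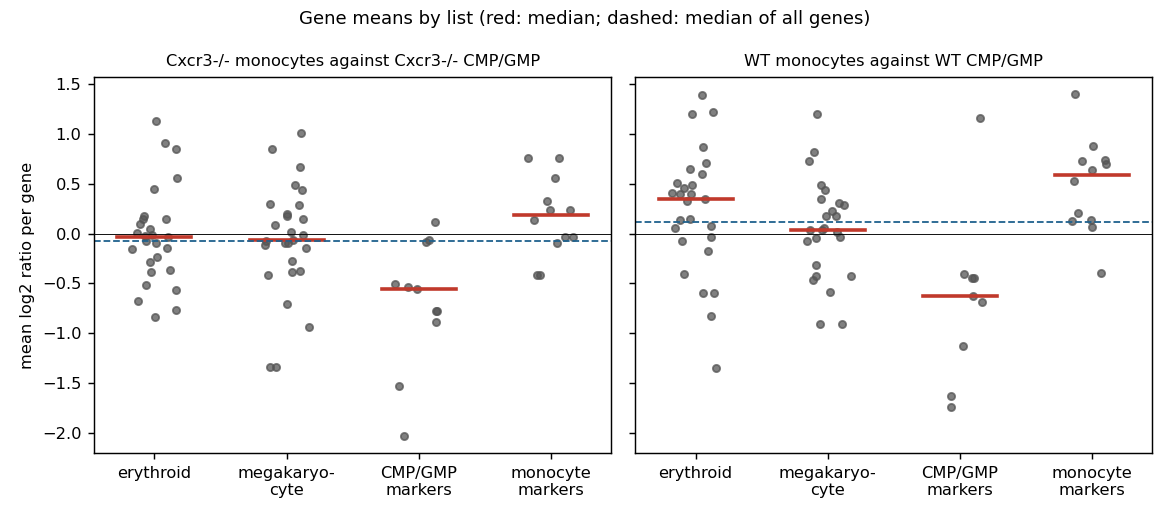
Mean log2 pileup ratio of monocytes over CMP/GMP per gene, with 1 point per gene, for the erythroid and megakaryocyte lists without the 8 members, the CMP/GMP markers and the monocyte markers, in Cxcr3-/- cells (left) and WT cells (right). Red lines are list medians and the dashed line is the median of all genes; on this scale the CMP/GMP markers lie mostly below 0, while the erythroid and megakaryocyte genes lie on both sides of it.

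Between genotypes, 10 of 26 erythroid genes and 16 of 26 megakaryocyte genes were above 0 for Cxcr3-/- over WT monocytes, with medians of −0.12 and 0.07, against 42.1% of all genes and a median of −0.06. For Cxcr3-/- over WT CMP/GMP the counts were 22 of 28 erythroid and 15 of 28 megakaryocyte genes, with medians of 0.13 and 0.01, against 61.2% of all genes and a median of 0.06. Across the 4 libraries, the 7 members with at least 2 regions called in every library had a median profile of centred log2 pileup of −0.12 in Cxcr3-/- monocytes, 0.12 in WT monocytes, 0.03 in Cxcr3-/- CMP/GMP and −0.02 in WT CMP/GMP. This median profile is nearly flat, but single members were not. In the same order Epor had −0.50, −0.13, 0.40 and 0.23, whereas Ank1 had 0.22, 0.29, −0.40 and −0.11. Of 13564 genes the nearest to the median profile by Euclidean distance were Pla2g15 (0.016), Maml3 (0.018), Metap2 (0.021), Ogdh (0.021) and F7 (0.025), over 4 libraries.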

How the data were processed

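Groups were taken from the labels, with 1 Omni-ATAC-seq library each. Trim Galore, Bowtie2 and SAMtools were used with the mm10 build, per the submitters' processing notes; the peak caller, and whether the duplicate sequencing runs were pooled before calling, are not given in the sources used here. Each deposited list gives the authors' intervals for 1 library. The deposited fold enrichment is the authors' ratio of the summit pileup to the expected background. Each interval's −log10 p and −log10 q, as deposited, are those of the authors' caller at the summit. The deposited score, for nearly all intervals the whole part of 10 times the authors' −log10 q, was not used. Fold and p values describe each interval within its own list.

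From the fold and −log10 p the whole-number pileup was recovered, assuming Poisson background and 1 added tag, within a tolerance of 0.001, for all but 2, 3, 59 and 2 intervals of Cxcr3-/- monocytes, WT monocytes, Cxcr3-/- CMP/GMP and WT CMP/GMP. None of these lay in the 8 loci. Intervals sharing a base were merged into regions, each with its highest pileup per library, and scaled by the median over the 44532 regions with a pileup in all 4 libraries. A region that is not called is below the caller's threshold, not closed. Ratios of single regions carry exact 95% Clopper-Pearson counting intervals. Those of a gene were averaged over its regions that had a call in each library and pileups averaging 30 tags or more. The ± of a gene mean, and the intervals of differences between genotypes in the flagged results, are 95% normal approximations from the pileups. Reads of 1 molecule amplified by PCR are not independent, so intervals cover counting error only. Background tags numbered 97.2, 95.6, 194 and 135 per 10 kb in the same order. Scripts used Python 3.11.15 and numpy 2.4.6, and the ratio step was checked on simulated counts.

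Named were all members with their start, strongest and most cell-type-biased regions, up to 5 list genes per direction with the largest ratio of 1 sign in both genotypes, and the 5 genes nearest in profile. Further regions were named after their values were seen. Some list genes that the rule names are not reported here. Members, lists and motifs were chosen with earlier results of these data known. Gene bodies and starts are those of RefSeq for GRCm38.p6, and 6 of the 8 members had a promoter entry. Exons and introns were not mapped.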

Additional observations from a re-analysis of the deposited data

Results flagged for a closer look

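Locus regions called in all 4 libraries, with the 4 pileups averaging 30 tags or more, numbered 20. In 4 of these 20, the log2 ratio of monocytes over CMP/GMP differed between Cxcr3-/- and WT cells by more than counting error. The value of the difference, Cxcr3-/- minus WT, was −0.66 (−1.21 to −0.12) for the Swsap1 promoter region in the Epor locus, −1.09 (−1.90 to −0.27) for the Tfrc promoter, −0.96 (−1.84 to −0.09) for the Tnk2 region in the Tfrc locus and −0.76 (−1.48 to −0.05) for the second Selp region. In each of these the ratio was lower in Cxcr3-/- cells, and background scaling, which adds 0.32 in Cxcr3-/- cells and 0.88 in WT cells, would make every such difference more negative. The same criterion picked out 2926 of 26837 regions genome-wide, 10.9%, against 20% here. The criterion was set after seeing the data: a stricter one, opposite directions with both intervals off 0, had picked out no region. The intervals cover counting error only, and with 1 library a group the difference was not tested between replicates.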

How the results depend on the processing

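No paired analysis was possible because each group has 1 library and the labels carry no replicate numbers; for the same reason no replicate could be left out. With the loci limited to gene bodies, intervals numbered 30, 35, 35 and 28 in Cxcr3-/- monocytes, WT monocytes, Cxcr3-/- CMP/GMP and WT CMP/GMP; regions called in monocytes alone and in CMP/GMP alone numbered 6 and 12 in Cxcr3-/- cells and 13 and 4 in WT cells; those called in Cxcr3-/- alone and WT alone numbered 1 and 9 in monocytes and 8 and 1 in CMP/GMP; 5 were called in both monocyte libraries and neither CMP/GMP library and 3 the other way; and the WT median of monocytes over CMP/GMP was 0.046. With lists cut to the 69521 best intervals, 13 regions were called in WT monocytes and not WT CMP/GMP, 6 in Cxcr3-/- and not WT monocytes, 8 in WT and not Cxcr3-/- monocytes, 10 in Cxcr3-/- and not WT CMP/GMP, and 6 in both monocyte libraries and neither CMP/GMP library. With a −log10 q of at least 5, 1 region was called in WT and not Cxcr3-/- CMP/GMP, and 6 in both monocyte libraries and neither CMP/GMP library. With a 50% reciprocal overlap, 9 were called in Cxcr3-/- and not WT monocytes and 7 in WT and not Cxcr3-/- CMP/GMP. The settings for regions called in both libraries of a cell type were chosen after seeing the data.

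Scaling by background tags gave median ratios of 0.047 for monocytes over CMP/GMP in Cxcr3-/- cells, a change of sign, 1.09 in WT cells, −0.60 for Cxcr3-/- over WT monocytes and 0.38 for Cxcr3-/- over WT CMP/GMP. It put 20 erythroid genes above 0 in Cxcr3-/- monocytes over CMP/GMP and 1 in Cxcr3-/- over WT monocytes, and 20, 23, 3 and 26 megakaryocyte genes in the comparisons in the order just given. Its shift, the same for every region, is the cause of these. With no minimum pileup the median was −0.13 for WT monocytes over WT CMP/GMP and −0.0030 for Cxcr3-/- over WT CMP/GMP, both changes of sign, and 19 of 36 erythroid genes were above 0 for Cxcr3-/- over WT monocytes; the cause was not tested. With a mean of at least 60 tags, 11 of 16 erythroid genes were above 0 for WT monocytes over WT CMP/GMP, against 19 of 27 as reported, a lower count because fewer genes had a ratio. A region near the median pileup of 21 tags is measured coarsely.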
